A study of Mus musculus with 26 samples.

Results

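The comparison set the submandibular gland of the mouse against the parotid gland. It used 10 of the 26 expression arrays of the series, chosen by the gland named in their titles. Of these, 6 held submandibular RNA (3 female and 3 male pools) and 4 held parotid RNA (2 female and 2 male pools). All mice were BALB/c, and no treatment was given in the labels. Every array held RNA from 1 pool, made from the 10 glands of 5 animals, and the pools carry the letters A, B and C in the submandibular gland and A and B in the parotid. The other 16 arrays (sublingual, lacrimal and meibomian glands) entered the fit only for the estimate of the spread. Neither the age of the mice nor the array platform is stated in the labels. Since each array is a pool of animals, the spread between arrays is smaller than that between single mice would be, and the p-values measure the spread between pools.

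Saliva is made in acini, whose cells secrete protein, salt and water, and is modified in ducts, which take salt back. The parotid is a serous gland, and the submandibular gland of rodents has in addition granular convoluted ducts, whose cells store growth factors and kallikrein proteases and are larger in males under androgen. Myoepithelial cells, which carry smooth muscle proteins, clasp the acini and ducts. The parotid lies below the ear beside the masseter muscle, with fat and lymph nodes within and around it.

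The deposited values were linear intensities, scaled so that the median of each array lay between 0.928 and 0.955, and are called scaled intensity below. Levels are geometric means over pools with the sexes weighted equally. Differences are submandibular minus parotid on the log2 scale with the standard error (SE) of the fit. A probe was called when limma's moderated test gave a Benjamini-Hochberg adjusted p under 0.05 and the log2 difference was at least 1. The median standard deviation between pools of a group was 0.320 (log2) in the submandibular gland and 0.299 in the parotid. By shared missing spots the 10 arrays fell into a first set, with both sexes of submandibular A and B and of parotid A, and a second set, with both sexes of submandibular C and parotid B. The brightest value was 158 and 194 on the parotid A arrays, against 280.0 to 625 on the other 8, so that the brightest genes have less room on the parotid A arrays. The 5 male arrays had 3.13 to 6.82 of the Y-linked gene Eif2s3y and the 5 female ones 0.0589 to 0.146. Uty, also Y-linked, overlapped between the sexes, at 0.698 to 1.61 on the male and 0.0338 to 0.971 on the female arrays. Xist, the RNA of the inactive X, was 0.217 to 6.10 on the female and 0.0234 to 0.0816 on the male arrays.

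How far did the glands differ? Of 8210 probes tested, 1378 were called (16.8%), with 619 higher in the submandibular gland (7.54%) and 759 higher in the parotid (9.24%). The median difference of all probes was 0.10. The parotid side held more of the large differences: 157 called probes were at least 3 log2 units higher in the parotid, against 66 in the submandibular gland. The arrays of the glands did not overlap at 1126 of the 1378 called probes, against 22.4% of all probes kept. The calls were made on these same arrays, so less overlap among them is partly built in. With the male and female pools of a letter as a random block 1120 probes were called (514 and 606). Both array sets gave the same sign for 1353 of the 1355 calls that had a value in each. Both sets entered the fit that gave the calls, so this agreement is partly built in too and is no replication. The first set alone gave 1330 calls (705 and 625) and the second alone 751 (213 and 538). The fit within the second set used another model, described with the processing, so the counts of the sets cannot be compared directly. Of the called probes, 95 lay below the 30th percentile of the array on every parotid array and 97 on every submandibular array. For these a fold is given as a bound.

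**Figure D1:**
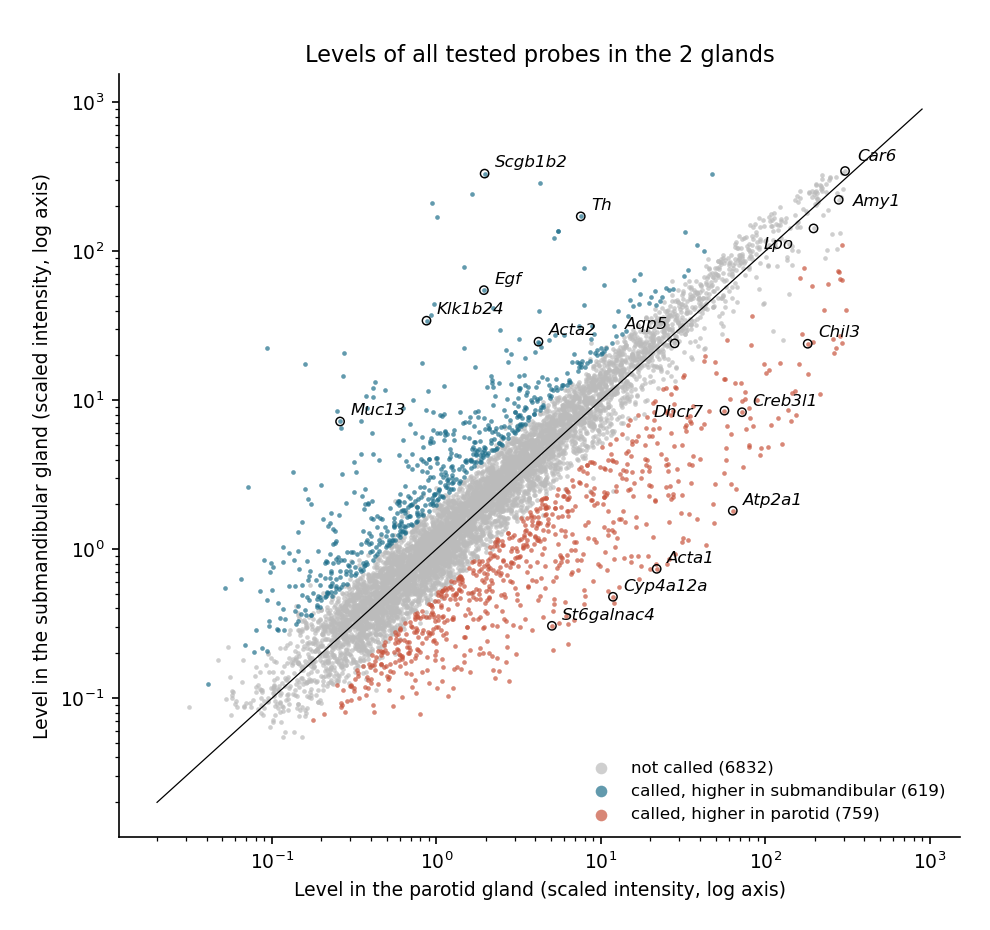
Level of every tested probe in the parotid (horizontal axis) and the submandibular gland (vertical axis), in scaled intensity on log axes, as geometric means with the sexes weighted equally. Blue points are the 619 probes called higher in the submandibular gland, red points the 759 called higher in the parotid, grey points the rest, and the line marks equal levels. Egf and Scgb1b2 lie far above the line, Atp2a1 far below it, and Car6, Amy1 and Aqp5 close to it.

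Egf and Klk1b24, products of the granular ducts, were higher in the submandibular gland. Egf, the epidermal growth factor stored in these ducts, lay between 8.46 and 19.7 on the female submandibular arrays and between 189 and 233 on the male ones. On the parotid arrays it was 1.87 and 1.63 in females and 2.15 and 2.19 in males. All 6 submandibular arrays lay above all 4 parotid arrays, and the gland difference was 4.82 ± 0.40 (SE, 6 and 4 pools, adjusted p 7.54e-09). It was 3.06 in females and 6.57 in males, and the test of the difference between the sexes had an adjusted p of 0.0606 in limma.

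Klk1b24, a tissue kallikrein (a secreted serine protease), showed the same order of groups. It lay between 4.64 and 7.78 on the female submandibular arrays, between 162 and 218 on the male ones and between 0.526 and 1.14 on the parotid arrays. The gland difference was 5.29 ± 0.37 (adjusted p 8.48e-09). Kallikrein genes are close copies of one another, and how far this probe also reads its relatives was not tested. The probe of Klk1b5, another tissue kallikrein, was at 325 in the submandibular gland and 222 in the parotid. The submandibular level lies near the brightest values of those arrays, and the parotid A arrays reached no more than 158 and 194 at any probe. No difference is therefore read from the Klk1b5 probe. Of the 9 probes kept on the list of granular duct products, 2 were called higher in the submandibular gland (Egf and Klk1b24) and 1 higher in the parotid (Ereg, the growth factor epiregulin, at 1.08 against 3.53). The other 6 were not called, and the median of the list was 0.55. This median was 1.22 within the first array set and 0.0070 within the second. The Klk1b24 difference was 5.75 within the first set and 4.75 within the second. Of all probes, 7.54% were called higher in the submandibular gland and 9.24% higher in the parotid. Probes for Klk1, Prol1, Smr3a and Bpifa2, other well known salivary products, were not analysed here.

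Scgb1b2, a secretoglobin (a small secreted protein), was among the brightest genes of the submandibular gland. It ranged from 217 to 510.4 over the 6 submandibular arrays with a median of 327, and was 2.82 and 1.31 in the female and 2.38 and 1.70 in the male parotid. No array of one gland came near the other, and the difference of 7.40 ± 0.31 (adjusted p 9.83e-13) was a 169-fold higher level. On 4 of the 6 submandibular arrays the spot reached 80% of the brightest value, so the difference may be understated.

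The promoters of Klk1b24 and Scgb1b2 are shown because they belong to the secreted genes whose levels were low in the parotid. They are the 250 bases before the transcription start, from RefSeq on GRCm38.p6, read on the strand of the gene (Klk1b24 plus strand, chr7:44187986-44188235, and Scgb1b2 minus strand, chr7:31291817-31292066). Capitals mark every match, on either strand, of TATAAA (the TATA box), AGAACA (a half-site of the androgen and glucocorticoid receptors) or CAGCTG (an E-box of the myogenic factors, the same on both strands).
Klk1b24: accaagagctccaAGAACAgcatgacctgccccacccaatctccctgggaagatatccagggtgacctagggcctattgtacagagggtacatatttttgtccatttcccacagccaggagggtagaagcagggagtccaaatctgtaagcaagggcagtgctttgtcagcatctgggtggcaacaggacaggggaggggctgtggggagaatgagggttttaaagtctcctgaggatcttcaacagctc
Scgb1b2: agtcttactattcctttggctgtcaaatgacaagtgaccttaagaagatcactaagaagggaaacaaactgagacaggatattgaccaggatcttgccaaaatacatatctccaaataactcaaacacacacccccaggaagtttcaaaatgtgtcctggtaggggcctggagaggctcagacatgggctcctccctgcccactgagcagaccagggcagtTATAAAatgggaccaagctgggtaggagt
The Klk1b24 window held 1 AGAACA, whose first base lay 237 bases before the start, and the Scgb1b2 window 1 TATAAA, 29 bases before the start. Over the 27025 genes of the table, 16.1% of windows of this length held AGAACA and 12.98% held TATAAA. A match is a description of the letters, not a binding site.

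Several other secreted or surface proteins were higher in the submandibular gland. Agr2, a disulfide isomerase of secretory cells, ranged from 4.29 to 20.3 (median 9.63) against 0.633 to 0.901 in the parotid, a difference of 3.81 ± 0.24 (adjusted p 1.52e-10). Muc13, a membrane mucin, ranged from 2.73 to 16.3 against 0.195 to 0.390, a difference of 4.79 ± 0.35. Mucl1, a small mucin-like protein, was 2.18 ± 0.28 higher, with the parotid below the 30th percentile on all arrays, so that the fold was at least 3.18.

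**Figure D2:**
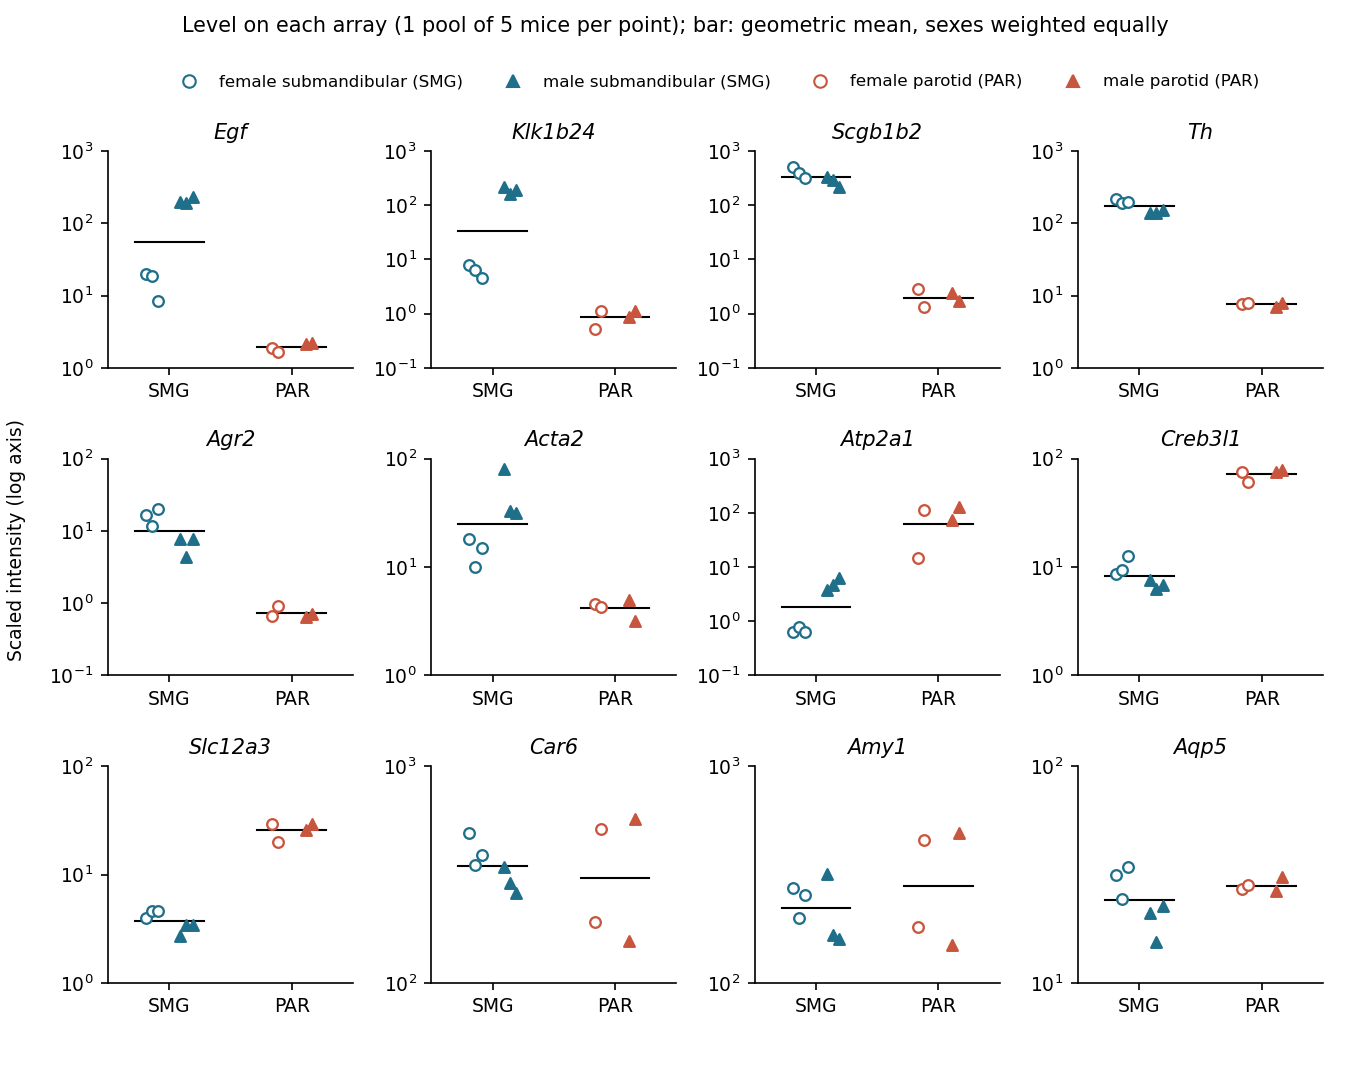
Scaled intensity of 12 genes on each array (log axes), with submandibular arrays (SMG) in blue and parotid arrays (PAR) in red, open circles for female and filled triangles for male pools, and a bar at the geometric mean with the sexes weighted equally. The male submandibular arrays of Egf and Klk1b24 lie far above the female ones, Scgb1b2, Th and Creb3l1 separate the glands in both sexes, and the parotid arrays of Car6 and Amy1 fall into a low pair (pool A) and a high pair (pool B).

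No difference between the glands was called among the markers of acini. None of the 8 acinar probes was called by limma. The log2 difference of each was under 1 in size, and 1 of them, Lpo, had an unadjusted p under 0.05 (0.0494). Car6, the secreted carbonic anhydrase of saliva, was at 346 and 306, with a difference of 0.17 ± 0.32. Amy1, salivary amylase, was at 221 and 280 with a difference of -0.34 ± 0.75. Their parotid arrays split by pool: Amy1 was 182 and 150.2 in the A pools and 458 and 492 in the B pools. The submandibular arrays, at 159 to 318, overlapped the A pools and lay below the B pools. The sign of Amy1 turned without the male parotid B array (0.088), and that of Car6 without the female (-0.18) or the male (-0.30) parotid A array. Car6 reached 80% of the brightest value on all 10 arrays and Amy1 on 1 submandibular and 3 parotid arrays. Car6 thus lies near the top of the measured range in both glands, and Amy1 mainly in the parotid. A higher level of Amy1 in the parotid may therefore be understated. The parotid A and B pools also lay in different array sets, so pool, array set and ceiling cannot be told apart here. The differences of Car6 and Amy1 do not bound the difference between the glands. Aqp5, the water channel of acinar cells, was well below the ceiling at 24.1 and 28.1, and the 95% interval of its difference ran from -0.71 to 0.27. Lpo, the antibacterial enzyme lactoperoxidase, was at 142 and 197 with an adjusted p of 0.137.

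Of 17 duct probes 6 were called higher in the submandibular gland (7.54% of all probes were), none was called higher in the parotid and 11 were not called. The median was 0.74, and the second array set alone, with 1 array a group, called 1. The 6 were Slc4a4, Scnn1b, Cftr, Ascl3, Krt7 and Krt18. Scnn1b, a subunit of the sodium channel by which ducts take up salt, ranged from 5.22 to 9.998 (median 7.02) and was 1.17 and 1.92 in the female and 1.48 and 1.87 in the male parotid, a difference of 2.17 ± 0.27 (adjusted p 2.51e-06). Cftr, the chloride channel, ranged from 2.24 to 6.64 against 0.592 to 1.24, a difference of 2.12 ± 0.38 (adjusted p 0.000236). Krt7, a duct keratin, was 1.29 higher (49.2 against 20.2), and Ascl3, a transcription factor of duct cells, 1.29 ± 0.31 higher. Summed over the 17 probes, the level was 530 to 675 on the submandibular arrays and 273 to 480 on the parotid arrays. In RNA from whole glands more duct cells and more RNA per duct cell cannot be told apart, and this holds for every marker list here.

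Transport genes went both ways, with 13 of 59 probes called higher in the submandibular gland and 9 higher in the parotid, beside 7.54% and 9.24% of all probes. Sgk1, the kinase that raises sodium channel activity under corticosteroids, was at 5.95 against 1.27 (2.23 ± 0.34), and Trpv6, a calcium channel, at 0.841 against 0.274 (1.62). On the parotid side, Slc12a3, the sodium-chloride cotransporter, was 29.4 and 19.8 in females and 25.7 and 29.4 in males, against 2.70 to 4.65 in the submandibular gland (median 3.67). The 2 glands did not overlap, and the difference was -2.79 ± 0.30 (adjusted p 2.85e-07). Fxyd4, a regulator of the sodium pump, was at 8.85 in the parotid and 2.15 in the submandibular gland (-2.04 ± 0.16). Aqp1, the water channel of small vessels, was at 0.920 against 0.273 (-1.75 ± 0.33). Without the male parotid B array 5 of the 9 parotid calls were made, and with the male and female pools of a letter as a random block 6.

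Th, tyrosine hydroxylase, which makes the precursor of noradrenaline, separated the glands without overlap. It ranged from 141 to 216 over the 6 arrays (median 172) and from 6.86 to 7.996 over the 4 parotid arrays, a difference of 4.50 ± 0.25 (adjusted p 3.62e-11). Ret, a receptor for neurotrophic factors, was higher by 2.31 ± 0.49 (adjusted p 0.00129). The male parotid A array, at 4.72, reached into the submandibular range of 3.82 to 11.1, and without it the Ret difference was 3.04. Without the male parotid B array it was 1.58. These were the 2 calls among 12 nerve and Schwann cell probes, both higher in the submandibular gland (7.54% of all probes were). The list had a median of 0.02.

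Per1, a clock gene that glucocorticoids induce, was at 8.17 to 20.02 in the submandibular gland (median 13.2) and 2.03 to 2.62 in the parotid, a difference of 2.59 ± 0.18 (adjusted p 5.66e-10). It belongs to a list of 28 genes of steroid metabolism and response. Of these, 6 were called higher in the submandibular gland and 1 higher in the parotid, beside 7.54% and 9.24% of all probes. The 1 was Hsd11b2, which inactivates corticosteroids (at least 1.41-fold, with an adjusted p of 0.0653 under the random block of pools). Without the female parotid A array 3 of the 6 were called. The largest of them, Sult1e1, an oestrogen sulfotransferase, was high in the males of this gland: 83.2 to 140.4 on the male submandibular arrays, 0.208 to 0.777 on the female ones and 0.0998 to 1.43 in the parotid.

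Of 9 smooth muscle genes of myoepithelial cells 5 were called higher in the submandibular gland (Acta2, Cnn1, Smtn, Myh11 and Tagln, against 7.54% of all probes), and 3 were not called. The median was 1.35, with 0.46 in females and 2.39 in males, and the second array set alone called 2. Acta2, smooth muscle actin, was 9.96 to 18.2 on the female and 31.4 to 81.1 on the male submandibular arrays, and 3.17 to 4.93 on the parotid arrays (2.56 ± 0.32, adjusted p 2.45e-06). Cnn1, calponin, was at 43.7 against 7.86 (2.47 ± 0.34). The 1 probe of this list called higher in the parotid was Des, desmin (-2.90 ± 0.44), which skeletal muscle carries too. The summed level ran from 43.3 to 71.0 in female and from 122 to 235 in male submandibular pools, and from 21.2 to 29.0 in the parotid. Vessel smooth muscle carries most of these genes as well, and its part in the result was not tested.

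Among 51 probes for vesicle docking and fusion, 8 were called higher in the submandibular gland and 4 higher in the parotid, beside 7.54% and 9.24% of all probes. The small GTPases Rab27a (2.52 ± 0.32) and Rab27b (2.59 ± 0.34), which tether secretory granules, were both higher in the submandibular gland. Rab27b ranged from 2.74 to 5.21 there and from 0.409 to 0.785 in the parotid. Unc13b, a priming factor, was at 5.88 against 1.13, and Stx7, a syntaxin, at 12.96 against 2.41. The synaptotagmins Syt8 and Syt9, calcium sensors of fusion, were higher in the parotid, by at least 8.32-fold and 4.92-fold, since the submandibular arrays were all below the 30th percentile. The Syt9 difference of -3.41 was -4.01 without the male parotid B and -2.81 without the male parotid A array. Of 69 probes for entry into and folding in the endoplasmic reticulum, 7 were called higher in the submandibular gland and 2 in the parotid, 13.04% in all beside the 16.8% of all probes. Hsp90b1, an abundant chaperone, was at 99.7 against 42.3 (1.24 ± 0.20), and Dnajb11, a co-chaperone, at 10.02 against 3.79 (1.40 ± 0.23).

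Regulators and growth factors were called on both sides. Creb3l1, a membrane-bound transcription factor of secretory cells, was 75.8 and 61.6 in the female and 75.1 and 77.9 in the male parotid, and 6.26 to 12.6 in the submandibular gland (median 8.08). The difference was -3.12 ± 0.34 (adjusted p 4.01e-07) with -2.76 in females and -3.48 in males. Pax9, a transcription factor of the oral and pharyngeal endoderm, was 8.46 to 13.6 against 1.09 to 1.82 (-2.89 ± 0.36). Dlx5, a homeobox factor, was at 17.5 against 3.002 (-2.55). Fgf10, a growth factor needed for salivary gland development, was 3.05 to 4.91 in the parotid and 0.483 to 0.714 in the submandibular gland (-2.72 ± 0.26, adjusted p 7.73e-08). In the other direction stood Tfcp2l1 (12.1 against 3.17, 1.93 ± 0.27), a factor of duct epithelium, and Wnt4, a secreted signal (3.86 against 0.315, 3.61 ± 0.57). In all, 12 of 95 regulators were called higher in the submandibular gland and 13 higher in the parotid, and of 89 growth signalling probes 8 and 15, beside 7.54% and 9.24% of all probes.

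Other genes of the parotid side had roles in secretion, defence and metabolism. Chil3, a secreted chitinase-like protein, was 155 and 212 in the female and 142 and 234 in the male parotid and 11.98 to 33.5 in the submandibular gland. Its difference of -2.92 ± 0.72 had an adjusted p of 0.00414, which was 0.118 with the male and female pools of a letter as a random block. Hrh2, the histamine H2 receptor, was 17.0 to 27.1 against 1.503 to 3.46 (-3.34 ± 0.25, adjusted p 2.24e-09). Cela1, an elastase, was at 5.17 against 0.426 (-3.60 ± 0.31). Dhcr7, the last enzyme of cholesterol synthesis, was at 56.6 against 8.51 (-2.73 ± 0.28). Cyp51, another gene of cholesterol synthesis, went the other way and was 2.38 higher in the submandibular gland. Of 37 lipid synthesis probes, 5 were called higher in the submandibular gland and 2 higher in the parotid, beside 7.54% and 9.24% of all probes. The cytochrome P450 genes Cyp4a12a (-4.63 ± 0.44) and Cyp2a12 (-3.58 ± 0.27) were at 11.9 and 12.3 in the parotid and at 0.479 and 1.03 in the submandibular gland. In both sexes Cyp4a12a was higher in the parotid (-4.73 and -4.53). Another cytochrome P450 gene, Cyp2b13, was higher in the submandibular gland, with a difference of 4.68.

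Enzymes that finish glycans differed member by member. Of 49 probes on the list of mucins and glycan enzymes, 5 were called higher in the submandibular gland and 11 higher in the parotid. Of all probes 7.54% and 9.24% were. The median of the list was -0.03. Among the sialyltransferases, which add the terminal sugar, St3gal4 was higher in the submandibular gland (29.6 against 2.43, 3.61 ± 0.35, 3 parotid arrays measured), as was St3gal1 (3.93 against 1.48). The St3gal1 call was lost without the female parotid A array (adjusted p 0.0638) and with the random block of pools (adjusted p 0.0818). St6galnac4 (-4.04 ± 0.51), St6gal1 (-2.92) and both probes of St3gal6 (-4.81 ± 0.27 and -4.04 ± 0.34) were higher in the parotid. St6galnac4 was 4.45 to 6.50 on the parotid arrays and 0.147 to 0.655 on the submandibular ones. Galnt6, which starts O-glycans, was at least 3.90-fold higher in the parotid, and Gcnt1, which branches them, was at 3.11 against 0.458 (-2.76).

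Skeletal muscle had the largest share of called probes among the 34 lists with at least 8 probes. Of 27 probes 23 were called higher in the parotid (9.24% of all probes were) and none higher in the submandibular gland, and the median was -2.75. Atp2a1, the calcium pump of fast muscle, was 14.9 and 113 in the female and 74.1 and 131 in the male parotid. In the submandibular gland it was 0.624 to 0.774 in females and 3.83 to 6.35 in males. The glands did not overlap, and the difference was -5.13 ± 0.53 (adjusted p 1.82e-07). It was -5.86 without the female parotid A array and -4.40 without the female parotid B array. Acta1, skeletal actin, was 8.87 and 27.7 in the female and 36.5 and 25.6 in the male parotid, against 0.168 to 3.41 (-4.89 ± 0.58). Pvalb, the calcium buffer parvalbumin, was at 19.8 against 0.742 (-4.74 ± 0.60). The fast troponin genes Tnnc2, Tnni2 and Tnnt3 were called. The slow ones were not: Tnni1 was at 4.89 and 4.84, with an SE of 1.999 for the difference, and Tnnt1 at 0.128 and 0.227.

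The amount of muscle signal varied between pools as well as between glands. Summed over 23 probes measured on all 10 arrays, it was 11.9 to 13.6 in the female and 29.1 to 35.5 in the male submandibular pools. It was 90.4 and 333 in the female and 300.0 and 363 in the male parotid pools. Whether the muscle genes came from tissue beside the gland was not tested. Between 21 and 24 of the 27 probes were called whichever array was left out. The count was 20 under the random block of pools, 20 within the first array set and 22 within the second.

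The promoters of a pair of muscle genes are shown because the members moved together. Both are the 250 bases before the start from RefSeq (GRCm38.p6), with the same motifs in capitals: Atp2a1 on the minus strand at chr7:126463074-126463323 and Ckm, muscle creatine kinase (-3.91, 10.9 in the parotid against 0.724), on the plus strand at chr7:19410844-19411093.
Atp2a1: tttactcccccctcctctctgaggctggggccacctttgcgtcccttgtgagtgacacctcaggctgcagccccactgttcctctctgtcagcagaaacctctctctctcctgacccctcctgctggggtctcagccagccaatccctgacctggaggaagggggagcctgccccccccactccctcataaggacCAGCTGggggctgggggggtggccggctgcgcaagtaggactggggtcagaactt
Ckm: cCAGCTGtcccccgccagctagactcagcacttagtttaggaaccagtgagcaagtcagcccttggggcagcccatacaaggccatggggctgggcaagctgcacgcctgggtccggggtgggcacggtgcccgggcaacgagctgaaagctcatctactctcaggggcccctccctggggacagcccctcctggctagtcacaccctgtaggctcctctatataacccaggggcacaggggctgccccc
Each held 1 CAGCTG, with its first base 55 bases before the start in Atp2a1 and 249 in Ckm. Of the 23 called muscle genes 16 matched a promoter of the table, and 11 of these windows (68.8%) held CAGCTG, against 12.7% of all windows in the table. TATAAA was in 12.5% of the 16 and AGAACA in 12.5%. The windows of Eno3, Myh2, Pvalb, Ryr1 and Tnnc2 held no CAGCTG. The other 7 genes, with no window used here, were Actn3, Cox6a2, Myot, Myoz1, Tcap, Tnni2 and Tnnt3. Over all 27 muscle genes kept, called or not, 20 matched a promoter and 13 of these windows (65%) held CAGCTG. Most of these are the called genes, so the share describes the muscle list and not the gland difference.

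**Figure D3:**
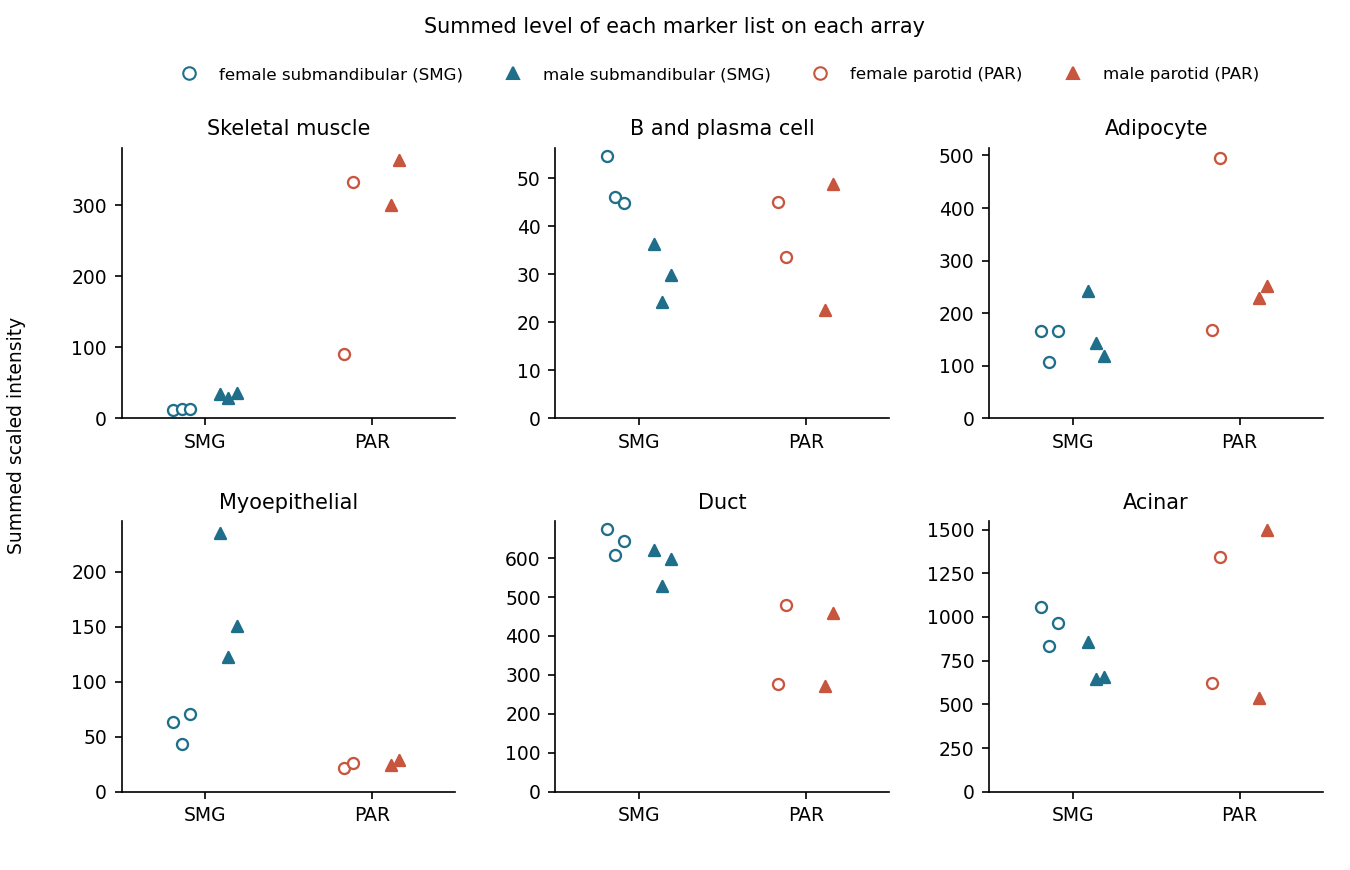
Summed scaled intensity of 6 marker lists on each array, with submandibular arrays (SMG) in blue, parotid arrays (PAR) in red, open circles for female and filled triangles for male pools. Muscle is 90.4 to 363 in the parotid and 11.9 to 35.5 in the submandibular gland, duct and myoepithelial sums are higher in the submandibular gland, and the B cell, adipocyte and acinar sums overlap.

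Lymphocyte and fat cell genes were more often called higher in the parotid, but their sums overlapped. Of 19 B and plasma cell probes 10 were called higher in the parotid and 1 (Cd22) higher in the submandibular gland, beside 9.24% and 7.54% of all probes. The median was -1.29. The Cd22 call was lost without the male parotid A array (1.35, adjusted p 0.0558). Tnfrsf13c, the receptor for a B cell survival factor, was at 1.09 against 0.267 (-2.03 ± 0.40), and Cr2, a complement receptor of B cells, at 2.37 against 0.718 (-1.72). Without the female parotid A array 6 of the 10 were called, and with the random block of pools 4. The plasma cell genes Jchain (3.41 against 2.43, adjusted p 0.617) and Prdm1 (0.372 against 0.326) were not called. The summed level was 24.3 to 54.8 on the submandibular and 22.7 to 48.8 on the parotid arrays. Of 15 T cell probes 4 were called, all higher in the parotid (9.24% of all probes were). Among them was Lat, a signalling adaptor (7.13 against 0.842, -3.08 ± 0.29), and 2 of the 4 held with the random block.

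Of 13 adipocyte probes 5 were called, all higher in the parotid (9.24% of all probes were): Cebpa (-2.14 ± 0.22), Retn (-1.56 ± 0.32), Plin4, Lipe and Car3. Adipoq, a hormone of fat cells, was at 42.7 in the parotid and 22.2 in the submandibular gland with an adjusted p of 0.0611. Without the female parotid B array, whose adipocyte sum of 495 exceeded the 107 to 252 of the other 9, 3 of the 5 were called, and with the random block of pools 3. The Lipe call (-1.36) was also lost without the male parotid A array (-0.999) and without the female submandibular B array (-1.04). Of 14 endothelial probes 4 were called higher in the parotid, beside 9.24% of all probes. Flt4, the receptor of lymphatic endothelium, was at 57.8 against 3.95 (-3.87 ± 0.42), with 33.5 to 93.1 on the parotid arrays and 3.33 to 4.63 on the submandibular ones. It made up most of the summed level of the list in the parotid (50.6 to 111, against 14.3 to 15.98), and 10 of the 14 probes were not called. The epidermal type keratins Krt6a (21.3 against 2.14, -3.32 ± 0.26) and Krt1 (at least 6.79-fold) and the desmosomal protein Pkp1 (61.5 against 5.97, -3.36 ± 0.27) were higher in the parotid too. They belong to a keratinocyte list of 21 probes with a median of 0.19. In it 4 probes were called higher in the parotid and 2 higher in the submandibular gland, beside 9.24% and 7.54% of all probes. Among the 2 was Sprr1b, a cornified envelope protein (8.32 against 1.39, 2.58).

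**Figure D4:**
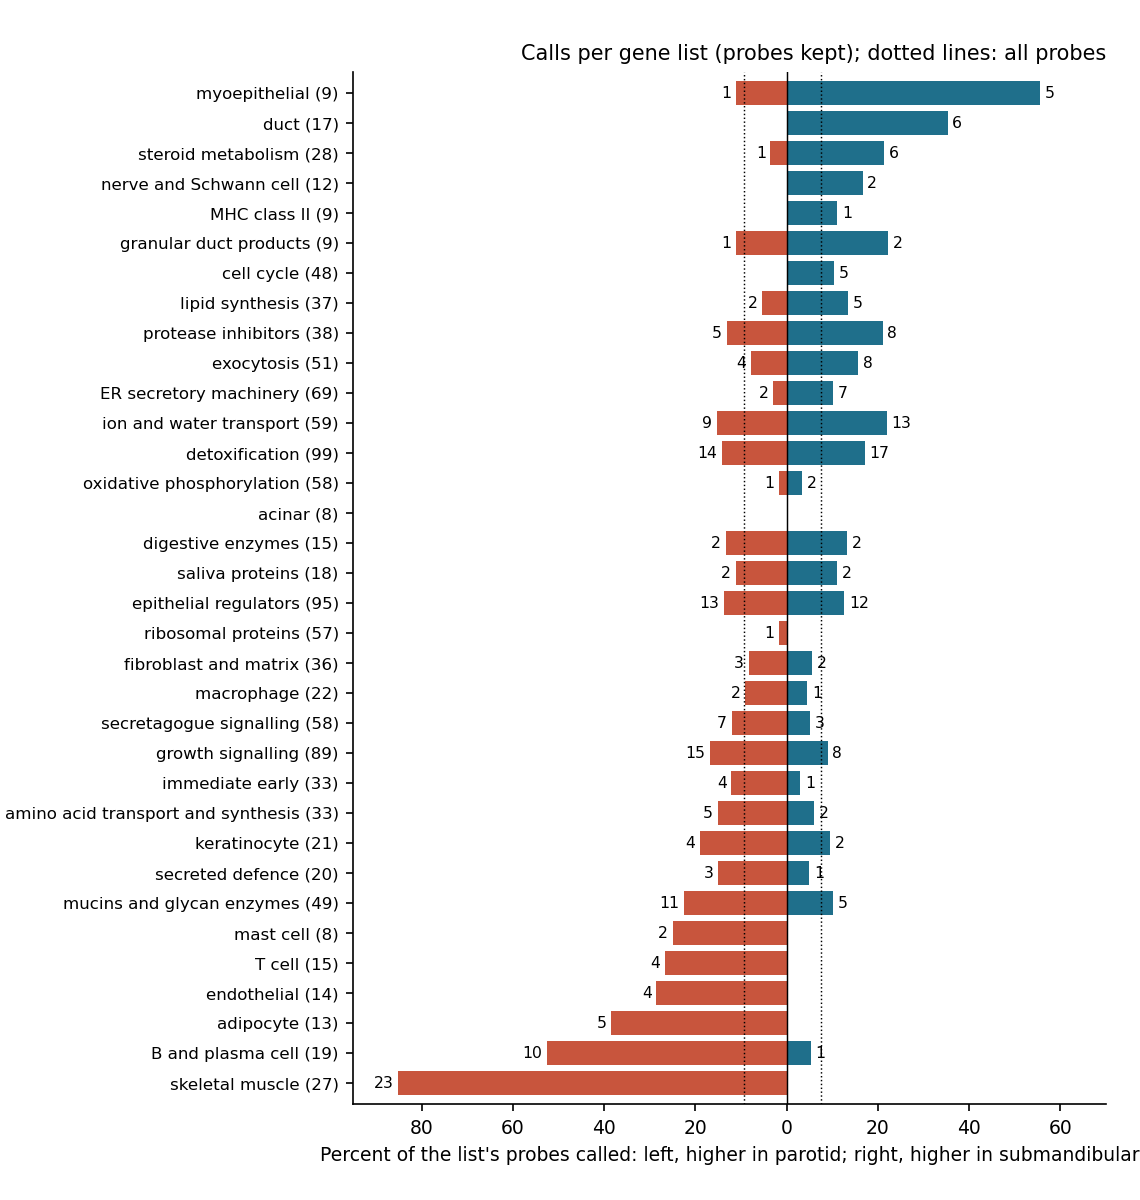
Percent of the probes of each gene list called higher in the parotid (red, to the left) or in the submandibular gland (blue, to the right), with the number called at each bar and the number of probes kept in parentheses. Dotted lines mark the 9.24% and 7.54% called over all probes. Skeletal muscle (23 of 27) stands at one end and myoepithelial genes (5 of 9) at the other, and no acinar probe was called.

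The gland difference was tested in each sex. In females 1005 probes were called (12.2%, with 5.42% higher in the submandibular gland and 6.82% higher in the parotid). In males there were 1265 (15.4%, with 7.24% and 8.17%). Of these probes, 747 were called in both sexes in the same direction (280 higher in the submandibular gland and 467 in the parotid). In the test of the difference between the sexes, 30 probes passed an adjusted p of 0.05 (0.365%), 28 of them with a male minus female difference above 0 (0.341%) and 2 with one below 0 (0.0244%). This sign does not say in which sex the glands lay further apart: Mdk, the growth factor midkine, was -2.95 in females and 0.54 in males. At an unadjusted p under 0.05 there were 425 of the 8210 probes, close to the share of 0.05 that would pass with no difference at any probe. These are not read as further genes. With the male and female pools of a letter as a random block the count at an adjusted p of 0.05 was 201, and all 30 were among them. It was 11 without the male parotid A array, 12 without female parotid B, 13 without male parotid B, 19 without male submandibular A and 20 to 31 without any other single array. The first array set alone gave 0 in limma. All 30 lay higher in the male submandibular gland than in the male parotid.

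Slc4a4, the sodium bicarbonate cotransporter, separated the glands in males. It was 0.350 to 0.720 on the female and 7.01 to 14.7 on the male submandibular arrays, and 0.247 to 0.374 on all parotid arrays. The difference was 0.65 in females (adjusted p 0.523) and 5.21 in males, and these differed by 4.56 ± 0.76 (adjusted p 0.00963). Klk1b24 (2.99 and 7.602) and Sult1e1 (1.38 and 6.42, adjusted p 0.0139) differed in the same way. The serpins Serpinb1b (1.62 and 3.89) and Serpinb6a (1.496 and 3.51), inhibitors of intracellular proteases, were higher in the submandibular gland in both sexes and more so in males. Ctrb1, a chymotrypsinogen, ran the other way: 3.24 in females and 0.65 in males (adjusted p 0.0466), with 10.4 to 20.8 on the female and 1.48 to 2.95 on the male submandibular arrays.

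At 3 genes the glands were called in opposite directions in the sexes. Cyp2b10, a cytochrome P450, was 0.162 to 0.258 on the female and 4.84 to 6.33 on the male submandibular arrays, with the parotid between at 0.969 to 1.46. It was therefore higher in the parotid in females (-2.40 ± 0.45) and higher in the submandibular gland in males (2.14). St6galnac2, a sialyltransferase, did the same (-2.12 in females and 1.27 in males), with 1.35 to 1.79 in female and 11.3 to 25.4 in male submandibular pools and 6.21 to 8.91 in the parotid. Smr2, a secreted protein of the submandibular gland, was 3.06 and 3.17 in female and 126 and 46.3 in male submandibular pools and 27.4 and 23.1 in the parotid. Its spot was missing on the arrays of the second set, so 4 submandibular and 2 parotid arrays gave its values (-3.14 in females and 1.73 in males).

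**Figure D5:**
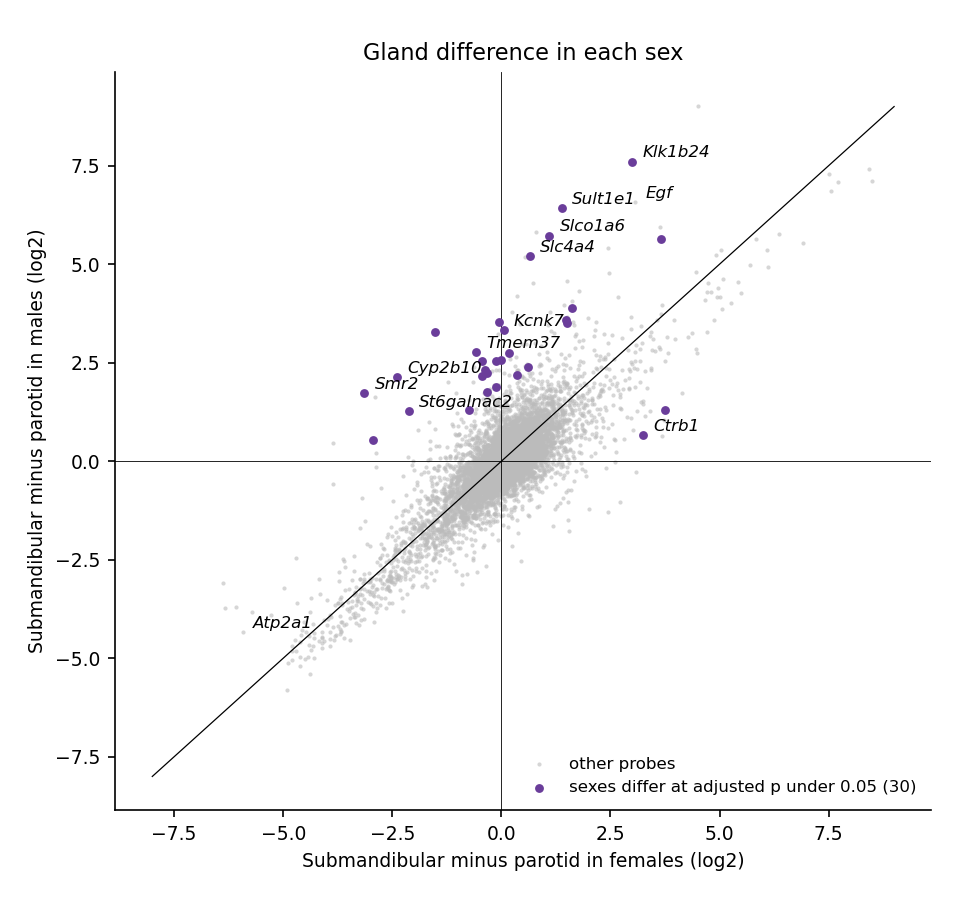
Submandibular minus parotid difference (log2) of every tested probe in females (horizontal axis) and males (vertical axis). The line marks equal differences, and purple points are the 30 probes whose difference between the sexes passed an adjusted p of 0.05. Klk1b24, Sult1e1, Slco1a6 and Slc4a4 lie far above the line, and Cyp2b10, St6galnac2 and Smr2 lie in the upper left, where the sexes have opposite signs.

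Many of the largest differences belonged to probes whose symbols are not those of known salivary genes. On the submandibular side these were the probes named for Mymk (7.80 ± 0.38, 211 against 0.944), Il3 (7.39 ± 0.36, 169 against 1.01), Plcl2 (7.21 ± 0.35), Fgf5 (6.06 ± 0.22), Ptch1 (5.74 ± 0.49), Twist2 (5.72 ± 0.26), Zfp467 (5.34 ± 0.21) and Insrr (at least 24.4-fold). On the parotid side they were the probes named for Cdx2 (-5.35 ± 0.30, 1.06 against 43.5), H2-Q6 (0.794 against 25.4), Ccdc30 (-4.93, and -1.84 at a second probe), Olfr16, Bmp8a, Cmklr1, Tcf23, Traip, Ccna1 and Foxn3. These probes, the second Ccdc30 probe apart, were chosen among calls whose arrays did not overlap between the glands. The lack of overlap is therefore no separate support. At the chosen probes each set of arrays gave the same direction, but both sets entered the fit that chose them. The names come from the platform annotation, and what these spots read was not tested.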

How the data were processed

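The 10 arrays each measured 1 pool of glands. The authors deposited linear intensities, background-subtracted and scaled within each array as far as the values show (small negative values, medians near 1). The value -1 marks a missing spot (0.821% of cells) and was left out. The upstream software and platform are not stated in the labels. Values were floored at 0.0234 (the 1st percentile of positive values), and log2 was taken. A probe was kept (8211 of 10500) where it reached the 30th percentile of the array on every measured array, at least 2, of at least 1 group of sex and gland. A single gene symbol was given for 8983 probes, several for 1 and none for 1516, and 8975 matched RefSeq (GRCm38.p6) by Entrez identifier.

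Group means of all 26 arrays were fitted with limma 3.58.1 in R 4.3.3 (lmFit, eBayes, 16 residual degrees of freedom), with no replicate block, and p-values were adjusted over 8210 probes (1 probe had no estimate). On simulated data for the gland comparison over 8211 probes, 82% of changes of 1.5 and 99% of changes of 3 were called, and 0.139% of unchanged probes. The simulated noise was independent between arrays and left out the shared deviations of male and female pools given below. These rates therefore need not hold for the real arrays. Bounds use the 30th percentile of each dim array. Precision is limited by the number of arrays.

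Male and female pools of 1 letter and gland deviated together (correlations of 0.537, 0.713 and 0.477 in the submandibular gland and 0.518 in the parotid over 7555 probes), so the pair was also fitted as a random block (consensus correlation 0.563). That fit and the one within the second array set were chosen after seeing the data. With 1 array a group, the second-set fit had an additive term for sex in place of means for each sex and gland. A gland difference that depended on sex therefore entered its residual spread. Its counts of calls are not comparable with those of the other fits.

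Members, lists and tests were chosen with earlier results of these data known. Genes were named as the 15 largest non-overlapping calls in each direction, up to 4 calls per list and direction, well known markers, the 10 smallest interaction p-values and the genes called in opposite directions in the sexes. Other list members named were chosen after their values were seen. Promoters are RefSeq sequences of the 250 bases before the start, and motifs were searched on both strands. Figures were drawn with matplotlib 3.10.9.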

Additional observations from a re-analysis of the deposited data

Results flagged for a closer look

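Of the 24 probes with a gene symbol whose gland difference differed between the sexes by limma's interaction term (adjusted p under 0.05), 14 belong to the genes named by the rule for names. Values are the male minus the female difference on the log2 scale. With the submandibular gland higher in males, and a smaller or opposite difference in females, stood Sult1e1 (5.03), Slco1a6 (4.64), Klk1b24 (4.61), Slc4a4 (4.56), Tmem37 (3.35), Kcnk7 (3.27), Traf1 (2.58), Rsph9 (2.57), Serpinb1b (2.26) and Serpinb6a (2.01). The direction was opposite in the sexes, and the difference larger in size in females, for Smr2 (4.87, measured on the first array set only), Cyp2b10 (4.54) and St6galnac2 (3.39). Ctrb1 had the larger difference in females (-2.59). All levels of Slco1a6 in the parotid lay below the 30th percentile of the array.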

How the results depend on the processing

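Over 27 alternatives, 4592 of the values of the 191 named genes kept direction and side of the threshold, 326 kept only the direction, 4 newly passed and 11 reversed. Of the counts of list members 1608 stayed within 1.5 times and 212 moved. The gland comparison gave 885 calls with log2(value + 0.5), 512 when limma tested against a log2 difference of 1 (340 in females, 428 in males) and 751 within the second array set, where the lists gave 156 in place of 274. Within the first set females gave 620 and males 642. The test between the sexes gave 62 with log2(value + 0.5), 52 with array weights, 57 with the array set as a term, 201 with the random block of pools and 0 within the first set. Without 1 array it gave 11 to 31, against 30. The cause was not tested.

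Reversals were Cyp2b10 (0.31 with log2(value + 0.5) and 0.24 within the second set), Amy1 (0.49 within the first set) and Car6 (-0.78 within the second). Without 1 array Amy1 ran from -0.77 to 0.088 and Car6 from -0.30 to 0.64. With the missing code set to the floor, which by construction lowers missing spots, Smr2 was 1.21, Slc7a5 2.12, Trpc1 0.41 and Cox6a2 0.034.

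Same-letter correlations between the glands were -0.20, -0.48, -0.27 and -0.56. With 2 parotid pools per sex, the deviations of parotid A and B mirror each other. Letter B also lay in different array sets in the submandibular gland and the parotid. Whether pool letters paired the glands therefore cannot be read from these correlations. The replicate block gave 1412 calls, and over the 10 arrays alone 1383, with 4 between the sexes. Signal at 80% of the array's brightest value or more, on at least 1 array, limits Car6, Amy1, Scgb1b2, Fgf5, Egf, Chil3, Lpo and Klk1b5.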

Other observations

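Of 99 probes for detoxifying enzymes 17 were called higher in the submandibular gland and 14 higher in the parotid, beside 7.54% and 9.24% of all probes. Gpx2, a glutathione peroxidase, was at 4.38 in the submandibular gland and 0.712 in the parotid (2.62 ± 0.31), and Aldh1a7, an aldehyde dehydrogenase, at 4.39 and 0.410 (3.42 ± 0.29). Aldh2, the mitochondrial aldehyde dehydrogenase, was at 2.80 and 15.8 (-2.50 ± 0.29). Sod3, the extracellular superoxide dismutase, was higher in the parotid with an adjusted p of 0.00979, which was 0.107 under the random block of pools.

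Of 38 protease inhibitors 8 were called higher in the submandibular gland and 5 higher in the parotid, beside 7.54% and 9.24% of all probes. Without the female parotid A array 5 of the 8 were called. The intracellular serpins Serpinb1a (21.9 against 2.64, 3.05 ± 0.31), Serpinb6b (12.3 against 2.04) and Serpinb9 (3.55 against 0.916) were higher in the submandibular gland. Serpina12, a secreted serpin, was at 4.97 and 18.7 (-1.91 ± 0.36), and Cst3, the secreted inhibitor cystatin C, at 77.6 and 171 (-1.14 ± 0.26).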
